A study of Mus musculus with 18 samples.

Results

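The polypeptide GalNAc transferases (Galnt genes) were measured in mouse liver for 9 named members: Galnt15, Galnt1, Galnt2, Galnt3, Galnt4, Galnt7, Galnt10, Galnt11 and Galnt12. Their rows were taken by gene symbol from the deposited tables, which hold 55385 genes, and all 9 were found. Galnt15 was named because of its difference between Dp16 and wild-type livers in these libraries. Its values in that contrast are therefore given as a description without a test. Of the 9 members, 8 passed the filter on low counts, as did 15208 genes in all, and Galnt12 did not.

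Livers came from 18 mice in 3 groups of 6, with 3 males and 3 females in each, aged 17.1 to 18.0 weeks, and the labels list no treatment. Wild-type mice were C57BL/6J. Dp16 mice, a model of trisomy 21, carry a duplicated segment of chromosome 16, and no member lies on that chromosome. Dp16-2xIFNRs mice carry the same duplication, but the dosage of the interferon receptor genes within it is normalized. Both are germline changes, so every liver cell carries them. The labels do not say whether the mice of a group shared a litter, so p values measure the spread between these animals.

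These enzymes sit in the Golgi and transfer N-acetylgalactosamine (GalNAc) from the donor UDP-GalNAc to serine or threonine of passing proteins, which begins mucin-type O-glycosylation. Other transferases then extend the first sugar and cap it with sialic acid. Family members differ in the peptides they prefer, and some act mainly on peptides that already carry a GalNAc. In the liver the pathway modifies secreted proteins such as apolipoproteins and lipase inhibitors, and it also acts on lipoprotein receptors.

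Total counts ran from 38236222 to 59923315 per library. Libraries 4 and 5 of the Dp16 group had the extreme TMM factors (0.8026 and 1.338), and the Galnt15 and Galnt11 differences are also given without both. The receptor gene Ifnar1 followed the genotypes: its mean was 33.6 ± 7.05 CPM in Dp16 livers, against 22.3 ± 2.32 CPM in wild-type livers and 23.1 ± 3.15 CPM with receptor dosage normalized (SD, n = 6). CPM here is the count scaled by the TMM-adjusted library total. Summed CPM of 6 hepatocyte markers lay between 76700 and 131000 in the 18 libraries, and none of the 6 was at 0 in all of them.

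Galnt15 (ENSMUSG00000021903.11) lies on chromosome 14 of GRCm38, from 32028989 to 32062197 on the plus strand, with 2 annotated transcripts and 10 exons after merging them. It is the member named for its difference between groups, so its promoter is shown. The RefSeq window on GRCm38.p6, chr14:32028853-32029152 on the plus strand, runs from 250 bases before the RefSeq start to 50 bases after it, and capitals mark the bases from the start onward.
Galnt15 promoter: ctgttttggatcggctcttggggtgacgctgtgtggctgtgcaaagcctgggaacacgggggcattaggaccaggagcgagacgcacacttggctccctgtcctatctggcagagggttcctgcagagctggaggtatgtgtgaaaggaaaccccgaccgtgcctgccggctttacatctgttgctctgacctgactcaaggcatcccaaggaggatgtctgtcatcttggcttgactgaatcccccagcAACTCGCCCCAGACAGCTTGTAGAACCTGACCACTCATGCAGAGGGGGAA
The window had a GC content of 57.3% and 9 CpG dinucleotides, against medians of 52.7% and 7 over 32851 RefSeq promoters. It was searched on both strands for 6 motifs: TATAAA of the basal promoter element, GGGCGG of Sp factor sites, CCAAT of NF-Y sites, CACGTG of the E box, the interferon-stimulated response element core (a pair of GAAA with any 2 bases between them) and TTCNNNGAA of STAT sites. None was found, whereas the shares of all promoters holding them were 13.6%, 35.7%, 37.4%, 7.15%, 3.44% and 8.3% in that order. No match means only that these letters are absent from this window. The table of promoters also holds Galnt3, Galnt7, Galnt10 and Galnt11. In those windows GGGCGG occurred 3 times in Galnt3, 2 times in Galnt7 and 2 times in 1 of the 2 Galnt11 windows, and the other 5 motifs were not found.

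Levels of different members were compared as the deposited RPKM, which is scaled to gene length and library total. Galnt1, a broadly expressed enzyme that starts O-glycans on many proteins, had the highest level of the 9 in each group, with means of 8.654 ± 0.9079 RPKM in Dp16, 7.758 ± 0.8419 in Dp16-2xIFNRs and 7.291 ± 1.533 in wild-type livers (SD, n = 6). Its range did not overlap that of the next member in any group, and it supplied 53.4%, 53.3% and 47.6% of the summed RPKM of the 9 members. Galnt11 followed with 3.207 ± 0.6597 RPKM in wild-type, then Galnt4 with 2.485 ± 0.9858 and Galnt10 with 1.168 ± 0.298. Neighbours in this order overlapped, except that Galnt10 lay above the next member in every wild-type and Dp16-2xIFNRs library without overlap of the ranges. The place of Galnt11 depends on the gene length: the deposited RPKM implies 2691 bases, while the merged exons of GENCODE M21 cover 6853. With the latter length its wild-type mean would be 1.259 RPKM, below Galnt4.

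The other 5 members were low. In wild-type livers Galnt7 measured 0.3767 ± 0.1729 RPKM, Galnt2 0.3153 ± 0.2266, Galnt15 0.2761 ± 0.0627, Galnt3 0.0896 ± 0.0616 and Galnt12 0.0476 ± 0.0470 (SD, n = 6), and among these 5 each overlapped the next. Galnt15 was thus the 7th of 9 by mean level in wild-type. In Dp16 it was the 5th, with 0.8207 ± 0.392 RPKM, and in Dp16-2xIFNRs also the 5th, with 0.5067 ± 0.1097. Its share of the members' summed RPKM, which does not depend on depth, was 1.033% to 2.351% in wild-type, 3.705% to 7.245% in Dp16 and 2.754% to 5.162% in Dp16-2xIFNRs. The shares of both duplication groups lay above every wild-type share, and the shares of those groups overlapped each other. Galnt2 is uncertain: 90.0% of its exon bases overlap Gm20388, an annotated gene on the same strand that had 0 counts in all 18 libraries. How reads shared between genes were counted is not stated in the sources at hand. If such reads were left out, Galnt2 is undercounted. The ranks, the summed RPKM and the shares of Galnt1 and Galnt15 above include Galnt2 as counted, so they depend on this.

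**Figure D1:**
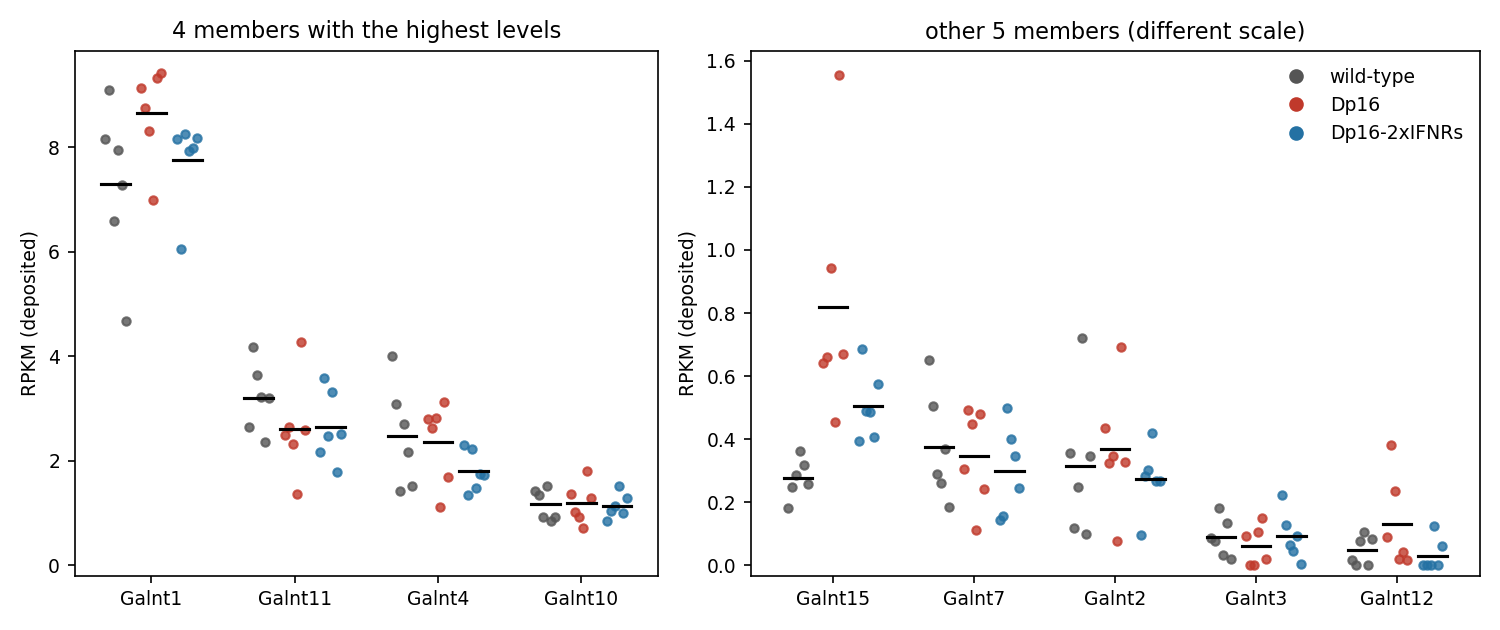
Deposited RPKM of the 9 members in the 18 liver libraries, grouped by genotype; points are libraries, black lines are group means, and the panels have different vertical scales. Galnt1 lies above the other members in each group, and the Galnt15 points of both duplication groups lie above the wild-type points.

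Galnt15 RNA was higher in both groups that carry the duplication. Wild-type libraries ran from 1.11 to 2.184 CPM with a median of 1.783. Dp16 libraries ran from 3.581 to 7.351 CPM with a median of 4.188, and Dp16-2xIFNRs libraries ran from 2.592 to 4.512 CPM with a median of 3.162. The lowest library of either duplication group lay above the highest wild-type library, while the duplication groups overlapped each other. Raw counts behind these values were 54 to 103 per library in wild-type, 118 to 589 in Dp16 and 115 to 193 in Dp16-2xIFNRs. In bulk tissue, a change in RNA per cell and a change in the number of expressing cells cannot be told apart.

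**Figure D2:**
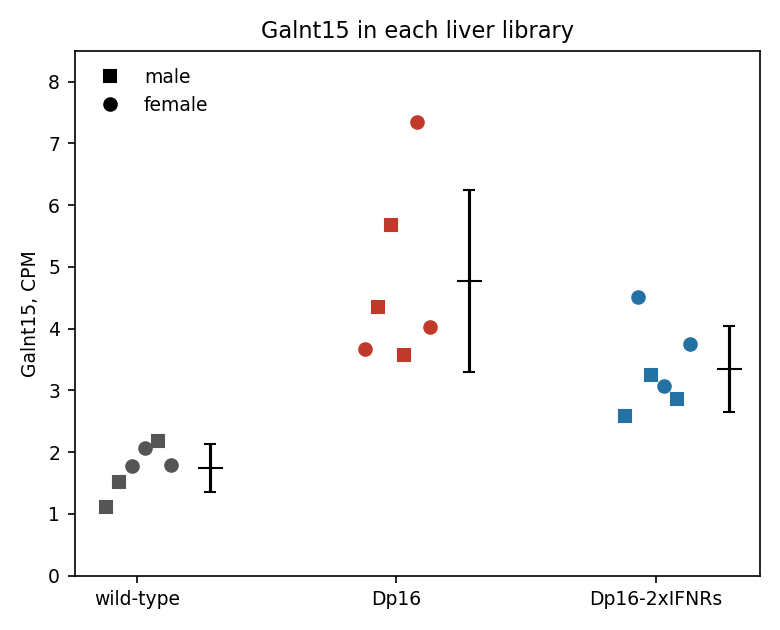
Galnt15 in CPM in each library, by genotype; squares are males, circles are females, and the bar beside each group is the mean ± SD of 6 libraries. Wild-type libraries reach 2.184 CPM, and no library of the other groups is below 2.592 CPM.

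Mean Galnt15 in Dp16 was 4.775 ± 1.473 CPM against 1.742 ± 0.3885 in wild-type (SD, n = 6), a fitted log2 difference of 1.46 (SE 0.228) or 2.75-fold. As this contrast chose the gene, no call is given for it. Without Dp16 libraries 4 and 5 together the log2 difference was 1.36 (SE 0.239).

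The contrast of Dp16-2xIFNRs with wild-type was not used to choose Galnt15, but it shares the wild-type libraries. The mean was 3.341 ± 0.6956 CPM against 1.742 ± 0.3885 (SD, n = 6), 1.91-fold higher, with 6 of 6 libraries above the wild-type maximum. The fitted log2 difference was 0.93 (SE 0.227, 95% interval 0.459 to 1.41). By edgeR's quasi-likelihood test the adjusted p = 0.141, so it was not called, and Galnt15 was the 59th of 15208 genes by p. DESeq2 called it, with a log2 difference of 0.95 and an adjusted p = 0.00883, and limma-voom did not (adjusted p = 0.235). Without Dp16 libraries 4 and 5, which enter the shared fit, the log2 difference was 0.93 (adjusted p = 0.0767, edgeR). In edgeR 0.0986% of genes were called in this contrast, and 0.48% had all Dp16-2xIFNRs libraries above all wild-type libraries.

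Dp16-2xIFNRs livers had 0.695 times the Galnt15 level of Dp16 livers. All 6 of these libraries lay below the Dp16 mean and 4 lay below the Dp16 minimum, but the ranges overlapped. The log2 difference was -0.53 (SE 0.223, 95% interval -0.993 to -0.059), with an adjusted p = 0.532 by edgeR. This comparison shares the Dp16 libraries with the contrast that chose the gene. Without Dp16 library 5, which had the highest value, the log2 difference was -0.39 (adjusted p = 0.954, edgeR), and without libraries 4 and 5 it was -0.42 (adjusted p = 0.336, edgeR). No gene of the 15208 was called by edgeR in this contrast (0%), with 1418 (9.32%) at an unadjusted p under 0.05 and 7 called by DESeq2.

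Galnt15 showed the same order of genotypes in both sexes. Wild-type males measured 1.605 ± 0.5417 CPM, Dp16 males 4.536 ± 1.062 and Dp16-2xIFNRs males 2.902 ± 0.3329 (SD, n = 3). Females measured 1.879 ± 0.1661, 5.014 ± 2.031 and 3.78 ± 0.7214 CPM. Within either sex, neither duplication group overlapped wild-type, which follows from the ranges over both sexes given above. The sex difference over all genotypes was log2 0.25 (SE 0.183, 95% interval -0.131 to 0.634, adjusted p = 0.499, edgeR), with 6 of 9 females above the male mean. The genotype effect in females less that in males was log2 -0.0844 (SE 0.469, adjusted p = 0.952, edgeR) for Dp16 and 0.15 (SE 0.472, adjusted p = 1, edgeR) for Dp16-2xIFNRs. The 95% intervals are wide (-1.07 to 0.903 and -0.843 to 1.15), so a difference between the sexes of any size within them is not excluded. Without Dp16 libraries 4 and 5 the sex difference was log2 0.13, and the 2 interaction values were -0.61 and 0.15, none of them called by edgeR.

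The other 7 tested members had smaller fitted differences than Galnt15 between wild-type and either duplication group. Galnt15 was named for its Dp16 difference, so its lead there follows from the choice. The Dp16-2xIFNRs contrast shares the wild-type libraries with it. In Dp16 against wild-type the other 7 members lay between log2 -0.57 and 0.21, and edgeR called 0 of them (all tested genes: 0.0395%). In Dp16-2xIFNRs they lay between -0.36 and 0.17 against wild-type and between -0.26 and 0.67 against Dp16. The median over the 8 tested members was -0.0889, -0.00305 and -0.0522 in that order, beside medians over all tested genes of 0.00997, -0.0247 and -0.0222. Of the 8, edgeR called 0 in Dp16-2xIFNRs against wild-type and 0 in Dp16-2xIFNRs against Dp16, with 1 at an unadjusted p under 0.05 in each, which was Galnt15 (all tested genes: 8.66% and 9.32%). DESeq2 called 1 (Galnt15) and 0, and limma-voom called 0 and 0.

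**Figure D3:**
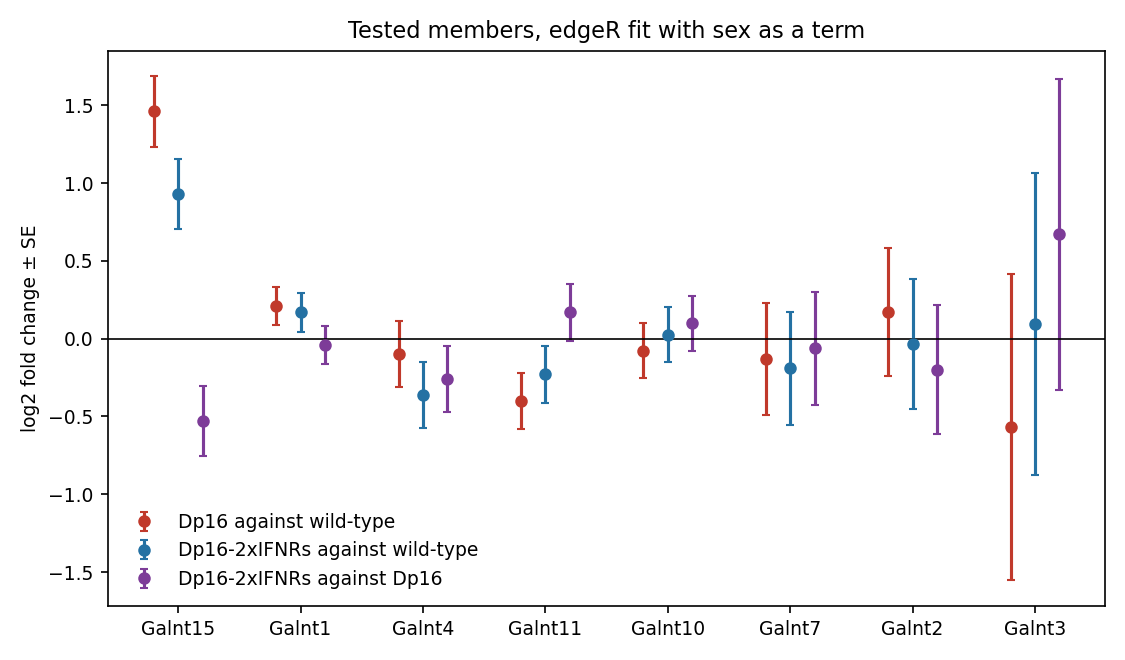
Log2 fold change ± SE of the 8 tested members in the 3 genotype comparisons, from the edgeR fit on 18 libraries with sex as a term. Galnt15 stands at 1.46, 0.93 and -0.53, and the bars of Galnt3, which has few counts, are the longest.

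Galnt1 ran from 22.0 to 37.95 CPM in wild-type (median 32.29), from 29.91 to 39.09 in Dp16 (median 36.4) and from 27.05 to 38.11 in Dp16-2xIFNRs (median 36.26). The 3 ranges overlapped over most of their length. Its log2 difference from wild-type was 0.21 (SE 0.125) in Dp16 and 0.17 (SE 0.125, adjusted p = 0.68, edgeR) in Dp16-2xIFNRs. Galnt11, which has been studied for its action on Notch and on endocytic receptors, ran from 6.85 to 10.95 CPM in wild-type (median 8.625), from 4.582 to 8.599 in Dp16 (median 6.329) and from 5.348 to 10.05 in Dp16-2xIFNRs (median 7.001). Here 4 of 6 Dp16 libraries lay below the wild-type minimum. Its log2 difference was -0.40 (SE 0.182, adjusted p = 0.956, edgeR) in Dp16, so it was not called. In Dp16 without libraries 4 and 5 it was -0.39 (SE 0.196), and in Dp16-2xIFNRs it was -0.23 (SE 0.182, adjusted p = 0.704, edgeR).

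Galnt4, Galnt7 and Galnt10 are enzymes that can add GalNAc to peptides already glycosylated nearby. Galnt4 ran from 7.067 to 19.74 CPM in wild-type (median 12.17), from 7.04 to 13.89 in Dp16 (median 12.37) and from 7.084 to 12.19 in Dp16-2xIFNRs (median 9.479). All 6 Dp16-2xIFNRs libraries lay below the wild-type mean, within the wild-type range, at log2 -0.36 (SE 0.212, adjusted p = 0.632, edgeR). Galnt10 lay between 5.228 and 9.054 CPM in all 18 libraries, with group medians of 6.926, 6.783 and 6.833. Galnt7 lay between 0.6372 and 2.837 CPM, with group medians of 1.529, 1.426 and 1.436. Neither had a genotype difference beyond its SE, as their log2 values lay between -0.19 and 0.10 with SEs from 0.177 to 0.362.

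Galnt2, studied for its link to blood lipids, lay between 0.3945 and 2.673 CPM, with group medians of 1.21, 1.375 and 1.217. Galnt3, known for protecting the phosphate hormone Fgf23 from cleavage, had 0 to 40 counts per library and 0 counts in 2 Dp16 libraries. Its log2 difference from wild-type in Dp16-2xIFNRs had a 95% interval of -1.94 to 2.12, too wide to show even a large change. Galnt12 had 133 counts in the 18 libraries together: 0 to 11 per wild-type library, 2 to 40 per Dp16 library and 0 to 11 per Dp16-2xIFNRs library. It was not tested, and the ranges overlapped.

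Of 10 further family genes, Galnt6 and Galnt18 passed the filter. Galnt6 had means of 0.9792, 0.7446 and 0.7153 CPM in wild-type, Dp16 and Dp16-2xIFNRs, and Galnt18 had 1.227, 1.517 and 1.049. Neither was called in any comparison by edgeR. Galnt9, Galnt14, Galnt16 and Galnt17 had 57, 89, 35 and 109 counts over all 18 libraries, and Galnt5, Galnt13, Galntl5 and Galntl6 had 0.

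In the sex comparison the members moved in both directions and none was called. With genotype as a term, 4 of the 8 were higher and 4 lower in females, with a median log2 difference of -0.015 beside 0.0213 over all tested genes, of which edgeR called 6.56%. At an unadjusted p under 0.05 there were 3 members (Galnt4, Galnt2 and Galnt1) beside 18.8% of all tested genes, and DESeq2 and limma-voom called 0. Galnt4 ran from 7.04 to 19.74 CPM in males (median 12.19) and from 7.067 to 12.85 in females (median 8.523), with 8 of 9 females below the male mean. The log2 difference was -0.45 (SE 0.174, adjusted p = 0.154, edgeR). Without Dp16 library 4, a male, it was -0.55 and called (adjusted p = 0.0305, edgeR).

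Galnt2 ran from 0.3945 to 1.419 CPM in males (median 1.219) and from 1.001 to 2.673 in females (median 1.568). All 9 females lay above the male mean, and 5 lay above the male maximum. The log2 difference was 0.77 (SE 0.341, adjusted p = 0.223, edgeR). Galnt1 ran from 33.8 to 39.09 CPM in males (median 37.23) and from 22.0 to 38.41 in females (median 30.77), and 5 of 9 females lay below the male minimum. Its log2 difference was -0.23 (SE 0.102, adjusted p = 0.224, edgeR). Galnt7 had 9 of 9 females below the male mean at log2 -0.59 (SE 0.297, adjusted p = 0.291, edgeR), with overlapping ranges.

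The genes around the first step were followed in 7 lists with 64 tested genes. In the 3 genotype comparisons edgeR, DESeq2 and limma-voom called 0 of the 64, and edgeR called 0.0395%, 0.0986% and 0% of all tested genes. At an unadjusted p under 0.05 edgeR had 1 in Dp16 against wild-type (all tested genes: 4.87%), 9 in Dp16-2xIFNRs against wild-type (8.66%) and 5 in Dp16-2xIFNRs against Dp16 (9.32%). The values that follow are those with the smallest p in their list and are given as values only. Among 12 genes of UDP-GalNAc supply, the hexosamine mutase Pgm3 stood at log2 0.48 (SE 0.217) in Dp16-2xIFNRs against wild-type. Among 5 extension enzymes, C1galt1c1, the chaperone of the core galactosyltransferase, stood at 0.53 (SE 0.234) in the same comparison. The sialyltransferase St6galnac2, 1 of 7 capping enzymes, stood at 1.26 (SE 0.629) in Dp16 and 1.29 (SE 0.631) in Dp16-2xIFNRs against wild-type. Its level was low, with means of 0.296, 0.704 and 0.722 CPM in wild-type, Dp16 and Dp16-2xIFNRs.

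On the side of recognition and substrates, the asialoglycoprotein receptor subunit Asgr2 stood at log2 -0.35 (SE 0.121) in Dp16 against wild-type and the lysosomal galactosidase Glb1 at -0.49 (SE 0.202) in Dp16-2xIFNRs against wild-type. The phospholipid transfer protein Pltp stood at -0.39 (SE 0.194) and -0.64 (SE 0.195) in those comparisons. All 9 mucin-like membrane proteins had values above 0 in Dp16 against wild-type, with a median of 0.201 and none called, and 51.4% of all tested genes were above 0 there. In Dp16-2xIFNRs 5 of the 9 were above 0 and 4 below, both against wild-type (median 0.507) and against Dp16 (median 0.111). Selplg, the selectin ligand of leukocytes, stood at 0.40 (SE 0.225) and Emcn, the endothelial mucin, at 0.43 (SE 0.263) in Dp16 against wild-type. Transferases that add GalNAc in other linkages had a median of 0.0512 over 11 tested genes.

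In females against males edgeR called 10 of the 64 genes, beside 6.56% of all tested genes (3.16% higher and 3.41% lower). DESeq2 called 10 and limma-voom 9. The lists were chosen with earlier results of these data known, so these counts do not test the pathway as a whole. Of 12 supply genes, 3 fell and 1 rose in females. Pgm3 fell from 18.6 CPM in males to 10.6 in females (log2 -0.80, SE 0.178, adjusted p = 0.00721, edgeR). The nucleotide sugar transporter Slc35d1 fell from 96.7 to 63.5 CPM (adjusted p = 0.0475, edgeR). Nagk, the salvage kinase for N-acetylglucosamine, rose from 13.9 to 19.7 CPM (adjusted p = 0.0414, edgeR). Thus the supply genes did not move in 1 direction. Of 5 extension enzymes, C1galt1c1 fell from 20.9 to 13.1 CPM (adjusted p = 0.0381, edgeR), and of 7 capping enzymes St6galnac4 rose from 0.788 to 3.20 CPM (adjusted p = 0.00712, edgeR).

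Of 11 proteins known to carry O-GalNAc, the lipoprotein receptor Vldlr rose from 0.434 CPM in males to 9.48 in females (log2 4.56, SE 0.445, adjusted p = 6.49e-07, edgeR) and Pltp from 99.7 to 174 CPM (adjusted p = 0.00352, edgeR). No gene was called among the 11 transferases of other linkages or the 9 mucin-like proteins. The calls of C1galt1c1, Nagk and Slc35d1 were kept in 9, 6 and 4 of 18 fits that each left out 1 library. Those of Pgm3, St6galnac4, Pltp and Vldlr were kept in all 18.

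**Figure D4:**
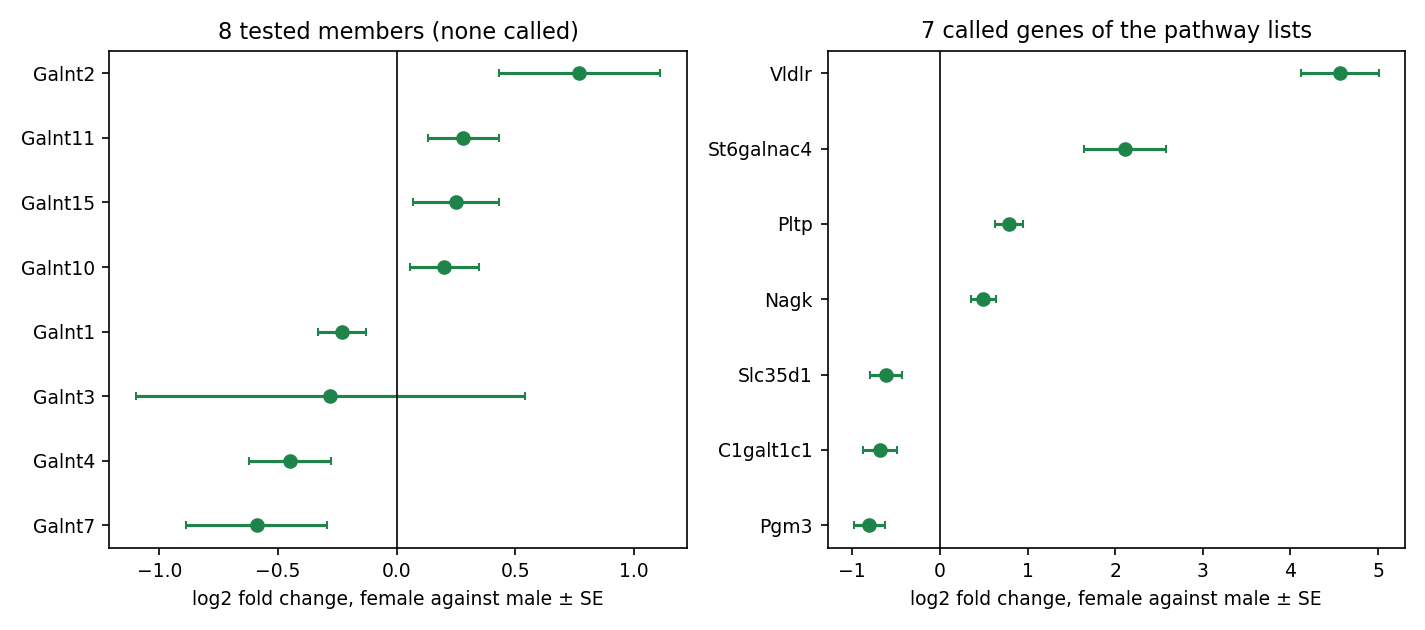
Log2 fold change ± SE, females against males, for the 8 tested members (left) and 7 called genes of the pathway lists (right), from the edgeR fit on 18 libraries with genotype as a term; the horizontal scales differ. Members lie between -0.59 and 0.77, and Vldlr is farthest to the right at 4.56.

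Genes were ranked by how closely their log2 CPM followed Galnt15 over the 18 libraries, among 9959 genes above a mean log2 CPM of 1. These correlations are descriptions over libraries that share their genotypes. The 5 most alike were Lyve1, a hyaluronan receptor of sinusoidal and lymphatic endothelium (r = 0.825), the matrix proteoglycan-cleaving protease Adamts5 (0.792), the matrix proteoglycan Podn (0.775), the secreted protease Htra1 (0.744) and the matrix protein Adamtsl2 (0.741). Adamts5 lies on chromosome 16, as does the duplicated segment, and whether it lies inside the segment was not examined here. Mean Lyve1 was 6.07 ± 1.8 CPM in wild-type livers, 11.6 ± 1.92 in Dp16 livers and 11.0 ± 3.14 in Dp16-2xIFNRs livers (SD, n = 6), and Podn 2.2 ± 0.492, 4.34 ± 1.18 and 3.74 ± 0.534. Neither was called in Dp16-2xIFNRs against wild-type (adjusted p = 0.141 and 0.289, edgeR). Both genes were picked for following Galnt15 in these same libraries, so group means like those of Galnt15 follow in part from the choice.

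After the genotype and sex means were removed, the r of these 5 genes with Galnt15 lay between 0.0812 and 0.461. The 5 most alike by that measure were the ubiquitin ligase Arih2 (0.693), the tubulin-binding protein Tppp (0.693), the tRNA methyltransferase Trmt2a (0.688), the endocytic protein Fchsd2 (0.673) and the ectonucleotidase Entpd8 (0.659). Trmt2a also lies on chromosome 16. These are the highest of 9959 values over 18 libraries. The highest of so many can be large without any link to Galnt15, and a link was not tested. The 7 other tested members had r values with Galnt15 between -0.296 and 0.24 over the 18 libraries.

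Markers of other liver cells were set beside Galnt15. Summed CPM of 8 stellate cell and fibroblast markers ran from 148 to 245 in wild-type (median 207), from 206 to 358 in Dp16 (254) and from 186 to 296 in Dp16-2xIFNRs (246). All 8 had values above 0 in Dp16 against wild-type, with a median log2 difference of 0.323, 3 at an unadjusted p under 0.05 (all tested genes: 4.87%) and 0 called by edgeR, DESeq2 or limma-voom. In Dp16-2xIFNRs against wild-type 7 were above 0 and 1 below, with a median of 0.164, 1 at an unadjusted p under 0.05 (8.66%) and 0 called by those tools. Against Dp16 the Dp16-2xIFNRs values were above 0 for 2 and below for 6, with a median of -0.184. None of the 8 was at 0 in all libraries. Their mean log2 CPM had r = 0.63 with Galnt15 over 18 libraries and 0.52 after the genotype and sex means were removed. Of 6 liver endothelial markers, Lyve1 among them, 4 were above 0 and 2 below in Dp16 against wild-type (median log2 0.162). In Dp16-2xIFNRs against wild-type 2 were above 0 and 4 below (median -0.218), and edgeR called 0 in either. Their mean log2 CPM had r = 0.34 with Galnt15 over 18 libraries and 0.096 after the genotype and sex means were removed. Markers of 9 other cell types had r between -0.35 and 0.35 over the 18 libraries and between -0.41 and 0.6 after that step, the highest for mesothelial markers, of which 1 passed the filter. The adipocyte marker Lep was at 0 in all libraries. Summed levels of 4 lists of blood cell markers had their highest median in Dp16-2xIFNRs, with overlapping ranges. Group medians for wild-type, Dp16 and Dp16-2xIFNRs were 104, 139 and 216 CPM for erythroid markers, 14.0, 18.1 and 20.3 for neutrophil and monocyte markers, 3.69, 4.97 and 6.24 for T and NK cell markers, and 6.52, 13.0 and 26.2 for B and plasma cell markers. Over all 18 libraries these sums ran from 13.2 to 412, 5.93 to 30.1, 2.25 to 8.36 and 2.49 to 54.9 CPM in that order, and edgeR called none of these markers in the comparisons with wild-type. The part of these cell types in the Galnt15 difference was not tested.

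**Figure D5:**
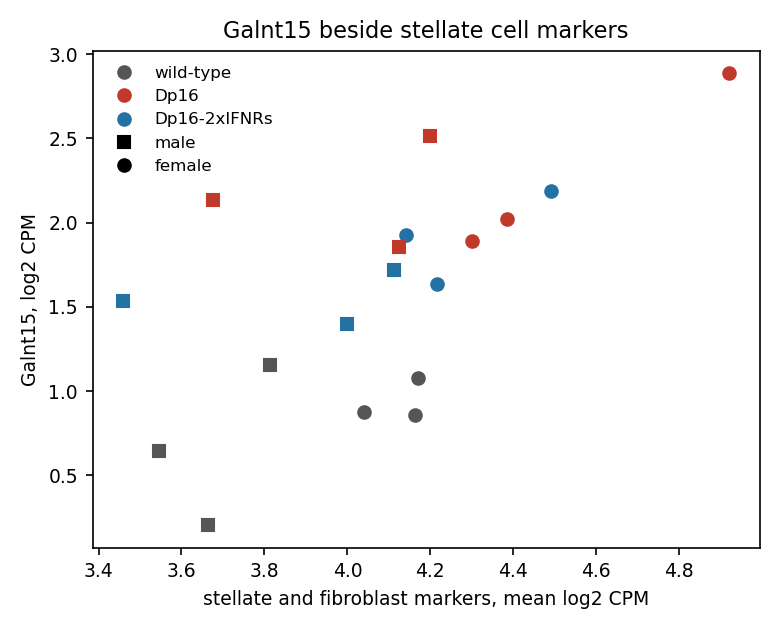
Galnt15 (vertical axis, log2 CPM) against the mean log2 CPM of 8 stellate cell and fibroblast markers (horizontal axis) in 18 libraries; colours are genotypes, squares are males and circles are females. The r over all libraries is 0.63, and wild-type points lie below the other points over the range of marker levels they share.

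The tested genes nearest to Galnt15 on chromosome 14 had smaller fitted differences than Galnt15 between wild-type and either duplication group. Galnt15 was named for its Dp16 difference. Btd (biotinidase), Ankrd28 and D830044D21Rik before it and Dph3 (diphthamide synthesis), Oxnad1 and Ncoa4 (the ferritin turnover receptor) after it lie between 18369 and 360410 bases away. Their log2 differences lay between -0.35 and 0.338 in Dp16 and between -0.171 and 0.512 in Dp16-2xIFNRs, each against wild-type. The 0.512 was that of D830044D21Rik, a low gene (mean 0.392 CPM in wild-type). Its SE of 0.754 is too large to set it below Galnt15. None of the 6 was called by edgeR in any of the genotype comparisons or between the sexes.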

How the data were processed

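The deposited table of counts holds whole-number counts per gene, and a second deposited table gives RPKM; each RPKM was checked to be the count over gene length and column total. Libraries were strand-specific and made from polyadenylated RNA, per the labels' protocols. Per the submitters' processing notes, HISAT2 2.1.0, HTSeq 0.6.1, SAMtools 1.5 and FastQC 0.11.5 were used with GRCm38. The sources used here do not give the strand setting. Positions of genes are those of GENCODE M21, which held 98.38% of the identifiers.

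Counts were filtered with filterByExpr, scaled with TMM and tested with edgeR 4.0.16 (R 4.3.3, quasi-likelihood, robust), with genotype and sex as terms and 18 libraries in 1 fit, or with their interaction. A gene was called where the Benjamini-Hochberg adjusted p over 15208 genes was under 0.05. Log2 CPM used a prior count of 2. The members and the gene lists were chosen with earlier results of these data known. Named genes were the members, each list's called genes (or the 2 with the smallest p; some of these are left out, and 3 called genes are not reported here), the 5 genes most like Galnt15 of each kind and its 3 neighbours on each side. Markers of 11 cell types were summed. Alternatives were DESeq2 1.42.0, limma-voom (limma 3.58.1), DESeq2 size factors, other filters, no sex term, age, blocks, only the groups compared, each sex alone, log2 RPKM with 0.1 or 1 added, and libraries left out. A merged exon length was added after the data were seen.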

Additional observations from a re-analysis of the deposited data

How the results depend on the processing

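Galnt15 stayed higher in both duplication groups than in wild-type under every alternative run, at log2 1.324 to 1.582 for Dp16 and 0.8465 to 1.051 for Dp16-2xIFNRs with 1 library left out (adjusted p from 0.09279 to 0.3458). DESeq2 called the latter (0.9498), which gave 1 called member there in place of 0. On log2(RPKM + 1) the Galnt15 values were 0.4895 in Dp16 and 0.238 in Dp16-2xIFNRs against wild-type and -0.2515 between these groups, since adding 1 understates changes of low genes. Dp16-2xIFNRs against Dp16 ran from -0.6174 to -0.3863 with 1 library left out. With 1 library left out, the sex interaction of Galnt15 ran from -0.4839 to 0.126 for Dp16 and from -0.1296 to 0.3597 for Dp16-2xIFNRs. Between the sexes, members called ran from 0 to 1, with 1 (Galnt4) without Dp16 4 and also without Dp16 4 and 5. Merged exon lengths moved wild-type Galnt1 to 5.671 and Galnt11 to 1.259 RPKM.

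Some uncalled differences of the other members changed sign. Galnt3 had stood at -0.573 in Dp16 against wild-type, 0.6664 in Dp16-2xIFNRs against Dp16 and -0.28 between the sexes, and the rest between -0.1931 and 0.1702. In Dp16 against wild-type, females alone gave Galnt2 -0.0634, Galnt4 0.2257, Galnt7 0.2537 and Galnt10 0.1993, and log2(RPKM + 1) gave Galnt10 0.00422. In Dp16-2xIFNRs against wild-type, Galnt3 was -0.1486 in limma-voom, -0.1004 with the replicate block, -0.28 with the description number as a block and -0.3343 in females. Galnt2 was 0.004941 with that block and 0.3283 in males, Galnt7 0.1598 in females, and Galnt10 -0.1863 in males and -0.02157 and -0.01534 on log2 RPKM with 0.1 and 1 added. In Dp16-2xIFNRs against Dp16, Galnt1 was 0.008213 in males, Galnt3 -0.2249 in females, and Galnt10 -0.02039 and -0.01956 on log2 RPKM. Between the sexes, Galnt3 was 0.4531 with the replicate block and 0.08018 without Dp16 4 and 5. The cause was not tested.

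With 1 library left out, values in Dp16 against wild-type ran from -0.1579 to 0.006432 for Galnt10, -1.099 to 0.01678 for Galnt3, -0.1949 to 0.04687 for Galnt4 and -0.2329 to 0.06387 for Galnt7. In Dp16-2xIFNRs against wild-type they ran from -0.05713 to 0.1103 for Galnt10, -0.1851 to 0.2104 for Galnt2 and -0.3357 to 0.5683 for Galnt3. In Dp16-2xIFNRs against Dp16 they ran from -0.0839 to 0.008777 for Galnt1 and -0.2609 to 0.1052 for Galnt7, and between the sexes from -0.6647 to 0.1504 for Galnt3.

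Same-numbered libraries of different groups had correlations of -0.245 to 0.36, over 0.1 in 6 of 18 pairs, so the numbers do not pair them. With the replicate block, Galnt15 stood at 1.437 in Dp16 and 0.9511 (adjusted p = 0.1418, edgeR) in Dp16-2xIFNRs against wild-type, and at -0.4854 between these groups. Descriptions of the libraries also carry a number whose meaning the labels do not give, and 7 pairs of libraries from different groups share one (correlations -0.0624 to 0.32, over 0.1 in 2). With it as a random block in limma-voom (consensus correlation 0.407), Galnt15 stood at 1.558 in Dp16 and 1.068 (adjusted p = 0.06141) in Dp16-2xIFNRs against wild-type, and at -0.4903 between these groups. Low counts limit Galnt3 and Galnt12, and 6 mice per group limit every comparison.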
